A study of Rattus norvegicus with 6 samples.

Results

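Sox and Fox genes encode 2 large families of transcription factors, and 40 of them were followed here, 13 Sox and 27 Fox genes of 14506 genes measured. They were every rat gene whose probe table symbol was Sox or Fox followed by a number (for Fox, by a subfamily letter and a number), apart from Sox9, Sox10, Foxd3, Foxc1, Foxc2 and Foxm1, which the rule left out. The rule goes by gene symbol and uses no difference between groups, but it was set with earlier results of these data known. Where a gene had several probe sets the brightest over all arrays was kept, and 39 of the 40 had a single one. A further 19 protein-coding Sox and Fox genes of the RefSeq rat table, among them Sox1, Sox3, Sox21, Foxf1 and Foxf2, were not analysed here.

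The RNA came from neurospheres, floating clusters of cells that had been dispersed from adult rat carotid bodies, the chemoreceptor organs that sense blood oxygen. Biotinylated cRNA made from total RNA was hybridised to 6 Affymetrix arrays, 3 labelled undifferentiated and 3 labelled differentiated. All cultures ran for 10 days in neural crest medium in low-attachment wells. Those labelled undifferentiated had normal oxygen and a mix of mitogens (EGF, FGF, ET-1 and IGF-1), and those labelled differentiated had no mitogens and 3% oxygen, so the effects of mitogens and of oxygen cannot be told apart. The series set out to compare pathways between spheres enriched in neuronal cells and spheres enriched in undifferentiated cells. Values are log2 expression values, differences are the arrays labelled differentiated minus those labelled undifferentiated, and a gene passed at a limma adjusted p under 0.05 over all genes.

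The levels of carotid body marker genes run against the labels, so the groups are called by their labels throughout. Whether the labels or the treatments were exchanged in the deposit was not tested. An exchange of labels would turn every direction given here and swap the mitogen and oxygen conditions of the groups. Th, tyrosine hydroxylase, which makes catecholamines in the glomus cells of this organ, averaged 13.76 ± 0.16 (SD, n = 3) on the log2 scale where the label was undifferentiated and 10.90 ± 0.37 (SD, n = 3) where it was differentiated. All 10 measured glomus cell markers fell, and the mean log2 level of that list lay between 9.97 and 10.04 in the first group and between 7.34 and 7.80 in the second. Of 10 mesenchyme and fibroblast markers 9 rose and 1, Thy1, fell, with a mean list level of 9.61 to 9.94 against 10.78 to 10.82. Of 10 macrophage markers 3 rose and 1 fell, with a mean list level of 6.76 to 7.33 against 7.07 to 7.74. Most endothelial, T cell and epithelial markers were dim: 10 of 13, 7 of 8 and 6 of 7 had mean log2 values no higher than 5.22, which 40% of the probe sets with a single gene symbol do not exceed. In such bulk RNA, fewer cells of a type and less RNA per cell cannot be told apart.

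Sox proteins bind the minor groove of DNA through an HMG box and bend it, usually together with a partner factor, and Fox proteins bind through a winged-helix forkhead domain. SoxB1 members are known for neural progenitor states. In the neural crest, from which the carotid body glomus cells and glia derive, SoxE members are known for progenitor and glial states. SoxC members are known for neuronal differentiation. FoxO members are known as factors that insulin and growth factor signalling, through AKT, keeps out of the nucleus, so that part of their control does not pass through RNA levels.

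Of the 40 genes, 9 rose in the arrays labelled differentiated and 0 fell. They were Sox4, Sox6, Sox11, Foxn3, Foxo3, Foxp1, Foxp4, Foxq1 and Foxs1. The share that rose was 22.5%, against 14.7% of all genes, and the share that fell was 0%, against 14.9% of all genes; 29.5% of all genes passed in either direction. At an unadjusted limma p under 0.05 the count was 13 higher and 0 lower, against 2886 higher and 2632 lower of all 14506 genes. An equal-variance test without moderation called 6 members higher and 0 lower, and called 8.22% of all genes higher. In 13 members all 3 arrays labelled differentiated lay above all 3 labelled undifferentiated, a share of 32.5% against 22.5% of all genes, and in 0 members they lay below, against 19.8% of all genes. The median difference was 0.12 over the 40 members and 0.06 over all genes. Differences ran from -0.12 for Foxa1 to 1.37 for Foxp1. The 9 that rose had mean values over 5.22, and none of the 17 members at or below that value passed, where 9.02% of all genes as dim did. Of the 23 members above it 9 passed (39.1%), against 43.6% of all genes as bright, in either direction.

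**Figure D1:**
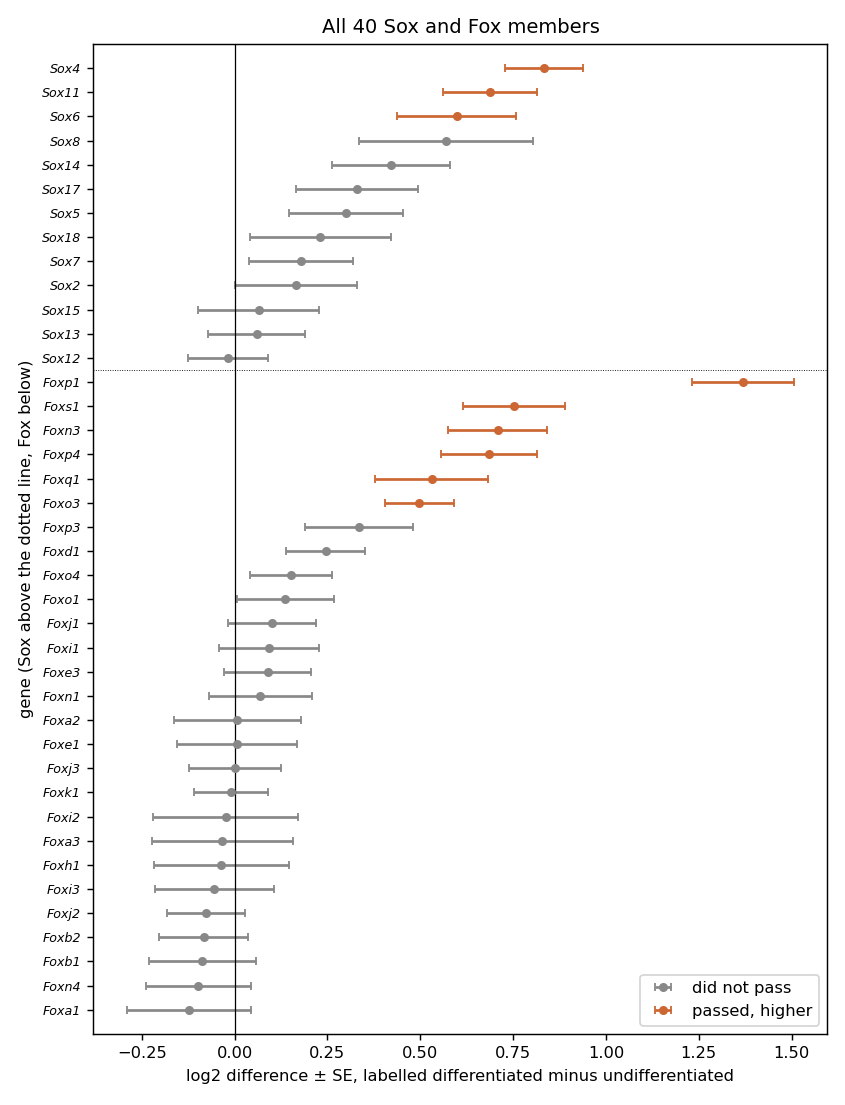
Log2 difference of each of the 40 Sox and Fox genes, labelled differentiated minus labelled undifferentiated, with its SE from the limma fit of 3 arrays a group. The 9 genes in orange passed, from Foxo3 at 0.50 to Foxp1 at 1.37, and the lowest point is Foxa1 at -0.12.

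Foxp1 was the only member with an absolute difference of at least 1, which 8.0% of all genes reached while passing. This forkhead repressor is known for roles in lymphocytes, heart, lung and neurons, and acts as a dimer with its relatives Foxp2 and Foxp4. Its log2 values were 7.52, 7.13 and 7.64 in the arrays labelled undifferentiated and 8.66, 8.93 and 8.81 in those labelled differentiated. The groups were far apart, with more than a log2 unit between the highest of the first and the lowest of the second. Foxp1 rose by 1.37 ± 0.14 (SE, limma adjusted p = 2.18e-05), a 2.58-fold difference.

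Foxp4, its relative, read 5.29, 5.21 and 5.48 and then 5.90, 5.97 and 6.16, again with no overlap, and rose by 0.68 ± 0.13 (SE, limma adjusted p = 0.00191). Foxp3, the factor of regulatory T cells, was dim on every array, at 3.73, 3.87 and 3.55 and then 3.95, 4.10 and 4.10. Its groups did not overlap, but the difference of 0.33 ± 0.15 did not pass (limma adjusted p = 0.118). None of 8 T cell markers passed (0 higher and 2 lower at an unadjusted limma p under 0.05), and the mean log2 level of that list was 4.05 to 4.40 and 3.91 to 4.20 in the groups.

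The stretches before the RefSeq start sites of Foxp1 and Foxp4 are shown because this pair rose together and differs in base composition there. Sox6 and Sox11, which also rose, are shown as examples of matches to the core motif of hypoxia response elements. Foxn3 and Foxq1 rose and held such a match too, but are not shown. The cultures differed in oxygen, and any link of these matches to oxygen or to the rises was not tested. Each line gives 250 bases on the gene's own strand, from RefSeq on the GRCr8 build, in lower case. Capitals mark matches, on either strand, to a forkhead motif (GTAAACA), to a Sox motif (AACAAT) or to the hypoxia core (ACGTG or GCGTG).
Foxp1, chr4:133353281-133353530, minus strand: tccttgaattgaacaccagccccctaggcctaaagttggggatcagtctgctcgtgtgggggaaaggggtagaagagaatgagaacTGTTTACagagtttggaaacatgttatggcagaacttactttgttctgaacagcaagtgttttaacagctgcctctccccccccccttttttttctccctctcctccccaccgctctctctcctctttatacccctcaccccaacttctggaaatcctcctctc
Foxp4, chr9:20556020-20556269, plus strand: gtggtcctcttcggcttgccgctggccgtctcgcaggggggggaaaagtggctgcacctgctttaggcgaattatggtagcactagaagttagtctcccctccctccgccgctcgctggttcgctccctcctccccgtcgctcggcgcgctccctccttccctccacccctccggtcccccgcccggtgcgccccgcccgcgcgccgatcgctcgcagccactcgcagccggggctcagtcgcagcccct
Sox6, chr1:179665372-179665621, minus strand: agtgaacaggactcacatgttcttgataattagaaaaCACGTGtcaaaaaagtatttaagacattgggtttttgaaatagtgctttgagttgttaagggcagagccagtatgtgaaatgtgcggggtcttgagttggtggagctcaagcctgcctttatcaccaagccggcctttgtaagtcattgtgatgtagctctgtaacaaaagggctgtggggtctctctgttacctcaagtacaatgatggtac
Sox11, chr6:49738795-49739044, minus strand: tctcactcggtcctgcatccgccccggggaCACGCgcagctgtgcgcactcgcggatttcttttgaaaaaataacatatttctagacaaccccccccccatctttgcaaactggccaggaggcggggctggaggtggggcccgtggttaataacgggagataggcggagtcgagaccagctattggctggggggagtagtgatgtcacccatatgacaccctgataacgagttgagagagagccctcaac

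The Foxp1 stretch held 49.6% G and C and a CpG ratio, observed over expected from its base content, of 0.138. Foxp4 had 70.8% and 0.939, so the pair stood near opposite ends of the members, whose CpG ratios ran from 0.138 to 1.157. Sox6 had 42.8% and 0.277, and Sox11 56.8% and 0.696. The promoter table held 26 of the 40 members, 6 of them among the 9 that rose. Their median G and C content was 63.8% for those 6, 62.8% for all 26 and 57.2% for the 12518 measured genes with an entry. Sox4, Foxo3 and Foxs1 had no entry.

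The single forkhead match among the 26 stretches lay in Foxp1, 164 to 158 bases before the start, and 2.61% of the stretches of all 12518 genes held such a match. Sox matches lay in 2 of the 26, those of Foxn1 and Sox15, against 7.65% of all genes. The hypoxia core was in 11 of the 26 (42.3%), against 46.9% of all genes. It was in 4 of the 6 that rose (Foxn3, Foxq1, Sox6 and Sox11) and in 7 of the 20 other members (35%). In Sox6 the letters CACGTG match on both strands, so 2 overlapping matches come from 1 place. These are letter matches in a short window, and no binding was measured.

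Among the Sox genes the SoxC subfamily held the most that rose. Sox4, known in neural crest and sympathetic progenitors as well as in many dividing tissues, read 8.02, 7.70 and 7.90 and then 8.73, 8.63 and 8.75. The second group was tight and lay wholly above the first. Sox4 rose by 0.83 ± 0.11 (SE, limma adjusted p = 0.00012), a 1.78-fold difference.

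Sox11, its partner in immature neurons, read 5.83, 5.46 and 5.56 and then 6.26, 6.34 and 6.30. It too had no overlap between groups, and it rose by 0.69 ± 0.13 (SE, limma adjusted p = 0.00158). Sox12, the other SoxC gene, read 7.16, 7.40 and 7.15 and then 7.12, 7.26 and 7.27, with overlapping groups and a difference of -0.02 ± 0.11 (limma adjusted p = 0.922). Subtracted within each array, Sox4 minus Sox12 ran from 0.30 to 0.85 in the arrays labelled undifferentiated and from 1.37 to 1.61 in those labelled differentiated. Sox4 minus Sox11 overlapped, from 2.19 to 2.34 and from 2.29 to 2.47.

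Sox6 represented the SoxD subfamily among the genes that rose. SoxD proteins lack an activation domain of their own, and Sox5 and Sox6 are known as partners of Sox9 in cartilage. The values of Sox6 were 5.10, 4.88 and 5.15 and then 5.80, 5.31 and 5.81, with array 2 lowest in each group and no overlap. Sox6 rose by 0.60 ± 0.16 (SE, limma adjusted p = 0.0154), but it did not pass with undifferentiated replicate 2 (adjusted p = 0.0621), differentiated replicate 1 (0.0632) or differentiated replicate 3 (0.0642) left out. Sox5 read 4.66, 4.50 and 4.80 and then 5.20, 4.87 and 4.80. Its groups touched, and the difference of 0.30 ± 0.15 did not pass (limma adjusted p = 0.18). Sox13, with overlapping groups, differed by 0.06 ± 0.13 (adjusted p = 0.784).

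Among the members, Sox2 alone stood for the SoxB1 subfamily and Sox8 alone for SoxE, and neither passed. Sox9 and Sox10 were left out by the rule, and Sox1 and Sox3 were not analysed. Sox2, known from neural stem cells and from glia of peripheral ganglia, read 6.98, 6.58 and 7.23 and then 7.28, 6.88 and 7.12. The groups overlapped, the difference was 0.16 ± 0.16 (limma adjusted p = 0.521), and without undifferentiated replicate 2 it was -0.0101. Sox8, a SoxE gene, had the widest spread within a group of all members, at 5.17, 4.60 and 5.41 and then 6.08, 5.29 and 5.52, and differed by 0.57 ± 0.23 (limma adjusted p = 0.097). It passed only with the replicate number as a block and when differentiated replicate 2 was left out. In both genes array 2 was the lowest of its group, as was the mean log2 level of 8 glia and Schwann markers, at 7.05, 6.84 and 7.11 and then 7.17, 6.52 and 6.96. The 8 markers include Sox10, itself a SoxE gene. Of those markers Mbp fell and S100b rose, but the S100b groups overlapped. S100b lost its call when 4 of the 6 arrays were left out singly (limma adjusted p of up to 0.147). The part of the spread of the glia and Schwann markers in the Sox2 and Sox8 values was not tested.

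The SoxF genes, Sox7, Sox17 and Sox18, are known from endothelium, and all had mean values at or below 5.22. Sox17 read 4.59, 4.44 and 4.52 and then 4.74, 5.18 and 4.62, with no overlap but a difference of 0.33 ± 0.16 that did not pass (limma adjusted p = 0.171). Sox18 read 3.97, 3.69 and 3.38 and then 4.15, 3.64 and 3.95, and its groups overlapped (difference 0.23 ± 0.19, adjusted p = 0.424). Sox7 differed by 0.18 ± 0.14 (adjusted p = 0.396). Beside them, 13 endothelial markers had a mean log2 level of 4.74 to 4.91 and of 4.73 to 4.87, and of these Erg rose and Cldn5 fell. Of the remaining Sox genes Sox14, a SoxB2 gene, read 4.72, 4.63 and 4.81 and then 4.82, 5.34 and 5.26 (difference 0.42 ± 0.16, adjusted p = 0.0719), and Sox15 differed by 0.06 ± 0.16.

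**Figure D2:**
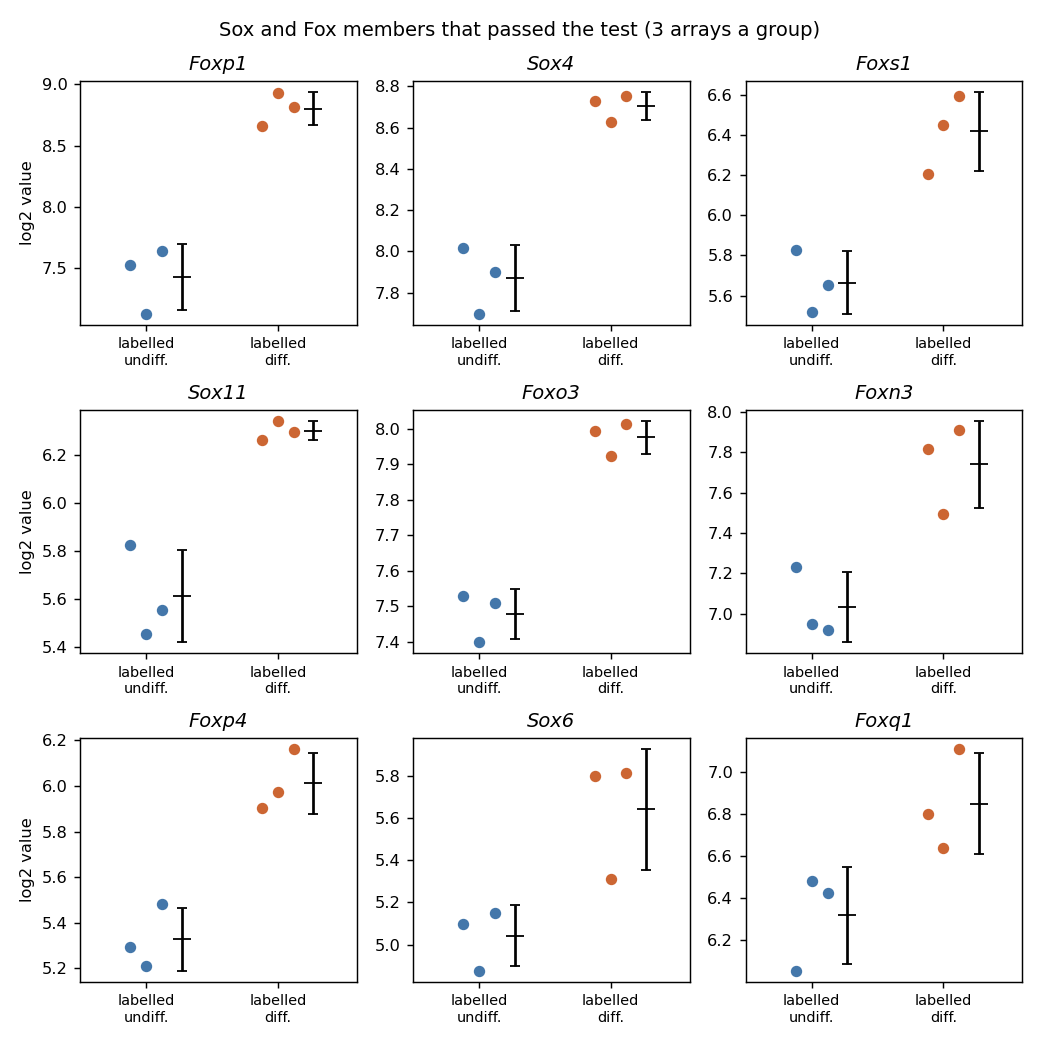
Log2 values of the 9 Sox and Fox genes that passed, with 1 point for each array, 3 labelled undifferentiated (blue) and 3 labelled differentiated (orange), and the mean with its SD beside them; each panel has its own axis, which does not start at 0. In all 9 panels the orange points lie above the blue, with the smallest gaps in Foxq1 and Sox6.

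Foxs1, a forkhead gene known from pericytes and neural crest-derived sensory neurons, had log2 values of 5.83, 5.52 and 5.65 and then 6.21, 6.45 and 6.59, with no overlap, and it rose by 0.75 ± 0.14 (SE, limma adjusted p = 0.00147). The smooth muscle and pericyte markers were divided, with 3 of 8 higher (Acta2, Tagln and Cspg4) and 2 lower (Rgs5 and Kcnj8), and their mean log2 level was 6.99 to 7.04 against 7.03 to 7.07. The part of these cells in the Foxs1 value was not tested.

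Foxn3, a repressor linked to the cell cycle checkpoint, was measured by 2 probe sets. The brighter read 7.23, 6.95 and 6.92 and then 7.82, 7.50 and 7.91, and rose by 0.71 ± 0.13 (SE, limma adjusted p = 0.00185). The other read 6.48, 6.48 and 6.64 and then 7.31, 7.25 and 7.43, a difference of 0.80. Both therefore gave groups without overlap and a similar size. Foxn1, the thymus epithelium factor, and Foxn4 differed by 0.07 and -0.10 and did not pass.

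Foxq1, a forkhead gene known from epithelia and carcinomas, read 6.05, 6.48 and 6.42 and then 6.80, 6.64 and 7.11. The groups were separated by a narrow gap, and Foxq1 rose by 0.53 ± 0.15 (SE, limma adjusted p = 0.0214). Without undifferentiated replicate 1 it differed by 0.40 (adjusted p = 0.0896) and without differentiated replicate 3 also by 0.40 (adjusted p = 0.0898). Of 7 epithelial markers 0 rose and 3 fell, and at an unadjusted limma p under 0.05 the counts were 1 and 3.

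In the FoxO subfamily Foxo3 alone passed. Its log2 values were 7.53, 7.40 and 7.51 and then 7.99, 7.92 and 8.01, tight in both groups and without overlap. Foxo3 rose by 0.50 ± 0.09 (SE, limma adjusted p = 0.00181), a 1.41-fold difference. Foxo1 read 6.31, 6.15 and 6.09 and then 6.55, 6.22 and 6.17, with overlapping groups (difference 0.14 ± 0.13, adjusted p = 0.501), and Foxo4 differed by 0.15 ± 0.11 (adjusted p = 0.362). Foxo3 minus Foxo1 within each array ran from 1.22 to 1.42 and from 1.44 to 1.84, a gap narrower than the spread of either group.

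Inside the 5 subfamilies with a gene that rose and at least 1 other measured member, the gene with the smallest p was set against each other member in the same array, 10 pairs in all. In 9 of the 10 the differences of the arrays labelled differentiated lay wholly above those of the other arrays, Sox4 against Sox11 being the exception. Some gaps were very narrow. Sox6 minus Sox5 reached 0.442 in the arrays labelled undifferentiated and began at 0.444 in the others. Sox6 minus Sox13 reached -0.505 and began at -0.491. The first gene of each pair was picked for its change, and that choice favours such separation. These values are therefore a description and were not tested.

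The other Fox genes did not pass. Foxj1, the master factor of motile cilia, read 5.74, 6.03 and 5.87 and then 5.95, 5.97 and 6.03, with overlapping groups (difference 0.10 ± 0.12, limma adjusted p = 0.587). Of 12 measured motile cilia genes linked to Foxj1, 0 rose and 0 fell (limma; 1 higher and 0 lower at an unadjusted p under 0.05), and 10 had mean values at or below 5.22. Foxd1, of kidney mesenchyme, read 6.90, 6.96 and 6.80 and then 7.27, 7.04 and 7.08, groups that did not overlap, but the difference of 0.25 ± 0.11 did not pass (limma adjusted p = 0.115). The endoderm factors Foxa1, Foxa2 and Foxa3 differed by -0.12, 0.01 and -0.03. Foxb1, Foxb2, Foxe1, Foxe3, Foxh1, Foxi1, Foxi2, Foxi3, Foxj2, Foxj3 and Foxk1 all lay between -0.09 and 0.09 with overlapping groups. Among the members the median SD within a group was 0.14 for the arrays labelled undifferentiated and 0.20 for those labelled differentiated, against 0.14 and 0.15 over all genes.

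**Figure D3:**
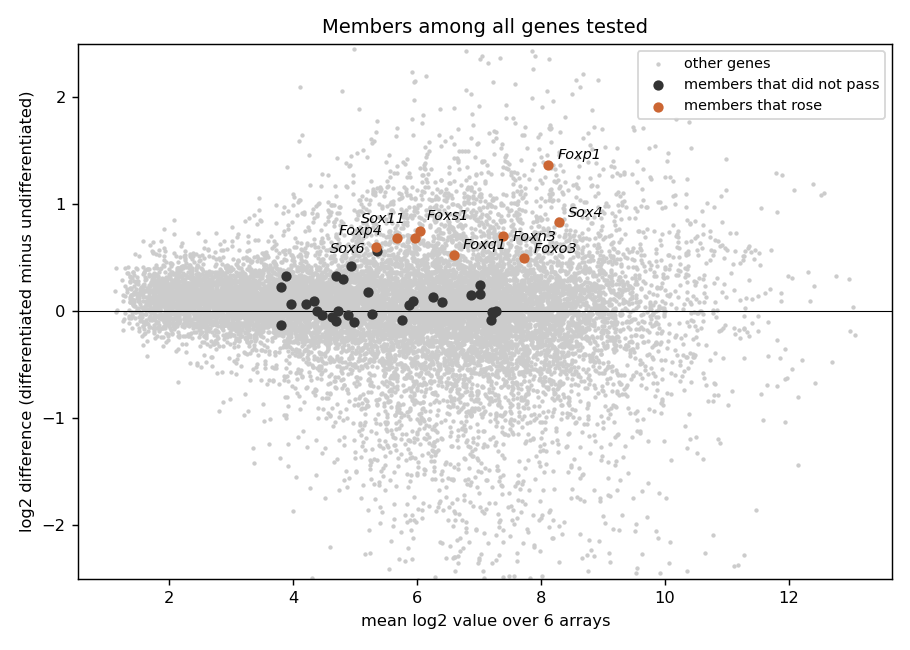
Mean log2 value over the 6 arrays against the log2 difference, labelled differentiated minus labelled undifferentiated, for all genes tested (grey), the 31 members that did not pass (black) and the 9 that rose (orange, named); 113 other genes lie beyond the axis limits of 2.5. The members that rose sit at mean values above 5.22 and differences of 0.50 to 1.37, within the cloud of other genes.

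Genes that work with these factors moved in both directions. The lists were chosen from textbook roles, and nothing is called particular to a list. Over the 8 lists 108 distinct genes were measured, of which 23 rose (21.3%) and 19 fell (17.6%), against 14.7% and 14.9% of all genes. Of 13 measured cartilage matrix genes that Sox5, Sox6 and Sox9 act on, 5 rose (38.5%) and 0 fell (0 lower also at an unadjusted limma p under 0.05), with a median difference of 0.25. Col11a1, a fibrillar collagen of cartilage, rose by 1.41 ± 0.14 (SE) and Acan, the proteoglycan aggrecan, by 1.24 ± 0.15. Matn4, Col2a1 and Hapln1, a matrilin, the main cartilage collagen and a link protein, rose by 0.94, 0.91 and 0.71. Matn4 and Hapln1 were dim, so with dim genes left out 3 rose.

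Of 12 measured immature neuron genes linked to Sox4 and Sox11, 1 rose (8.33%) and 4 fell (33.3%), with a median of -0.03. Tead2, a Hippo pathway factor known as a target of SoxC proteins, rose by 1.11 ± 0.13 (SE). Elavl3, a neuronal RNA-binding protein, fell by 1.10 ± 0.12, and the microtubule genes Map2, Stmn1 and Mapt fell by 0.85, 0.56 and 0.53. Tubb3 and Dcx, which mark young neurons, differed by -0.00165 and 0.03, with Dcx at mean log2 values of 3.02 and 3.05.

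Partners and targets of SoxB1 factors in neural progenitors were split, with 2 of 16 measured genes higher and 2 lower (12.5% each) and a median of 0.07. Hes1, a Notch target, rose by 1.12 ± 0.15 (SE) and the receptor Notch1 by 0.48. Notch1 no longer passed when undifferentiated replicate 2 (adjusted p = 0.0904), undifferentiated replicate 3 (0.0635) or differentiated replicate 1 (0.0809) was left out. Prom1, the stem cell surface protein CD133, fell by 1.38 ± 0.22 and Msi1, an RNA-binding protein of progenitors, by 0.57. Prom1 was dim, and with dim genes left out 3 genes of this list rose and 1 fell. In the TCF/LEF list, whose factors share the HMG box with Sox proteins, 1 of 8 rose (12.5%) and 3 fell (37.5%), with a median of 0.05. Tcf7 rose by 0.82, while Lef1 fell by 1.74 ± 0.10. The beta-catenin readout Lgr5 fell by 2.43 ± 0.10 and Axin2 fell by 1.00.

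In the hedgehog pathway, which controls several Fox genes in development, 4 of 9 measured genes rose (44.4%) and 0 fell (0 lower also at an unadjusted limma p under 0.05; median 0.38). The transcription factor Gli3 rose by 1.12 ± 0.15 (SE), the transducer Smo by 0.87, Gli1 by 0.43 and the co-receptor Cdon by 0.38. Gli1 was dim, and the count was 3 with dim genes left out. It was 2 without undifferentiated replicate 2, and Gli1 and Cdon each lost their call when 4 of the 6 arrays were left out singly, with an adjusted p of up to 0.0888 and 0.0938.

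The genes around FoxO were divided at each level. Of 15 measured regulators 4 rose (26.7%) and 3 fell (20%), with a median of -0.13. The receptors Igf1r and Insr fell by 1.40 ± 0.11 (SE) and 1.16 ± 0.13, and the 14-3-3 protein Ywhag, of a family that holds FoxO in the cytoplasm, by 0.53. Akt1, the kinase that phosphorylates FoxO, rose by 0.44, the PI3K subunit Pik3r1 by 0.50, the adaptor Irs1 by 0.48 and the kinase Sgk1 by 0.58. Sgk1 lost its call without any array other than undifferentiated replicate 1 (adjusted p of 0.0527 to 0.166).

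Among 25 measured FoxO target genes 6 rose (24.0%) and 9 fell (36.0%), with a median of -0.14. Cdkn1a, the cell cycle inhibitor p21, rose by 1.39 ± 0.16 (SE) and Bcl2l11, the pro-apoptotic Bim, by 0.92 ± 0.11. Tob1, an antiproliferative protein, fell by 1.32 ± 0.09, and Igf1r and Insr are counted in this list too. The largest change in the list was that of Bnip3, a mitophagy receptor also known as induced by hypoxia, which fell by 2.11 ± 0.20 (SE, limma adjusted p = 1.27e-05) in the arrays labelled differentiated, the cultures at 3% oxygen per the labels. Bcl6, Txnip and Trib1, 3 of the 6, did not pass without undifferentiated replicate 2, undifferentiated replicate 3 or differentiated replicate 3. Bcl6 did not pass with the replicate number as a block either (limma adjusted p = 0.0534).

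**Figure D4:**
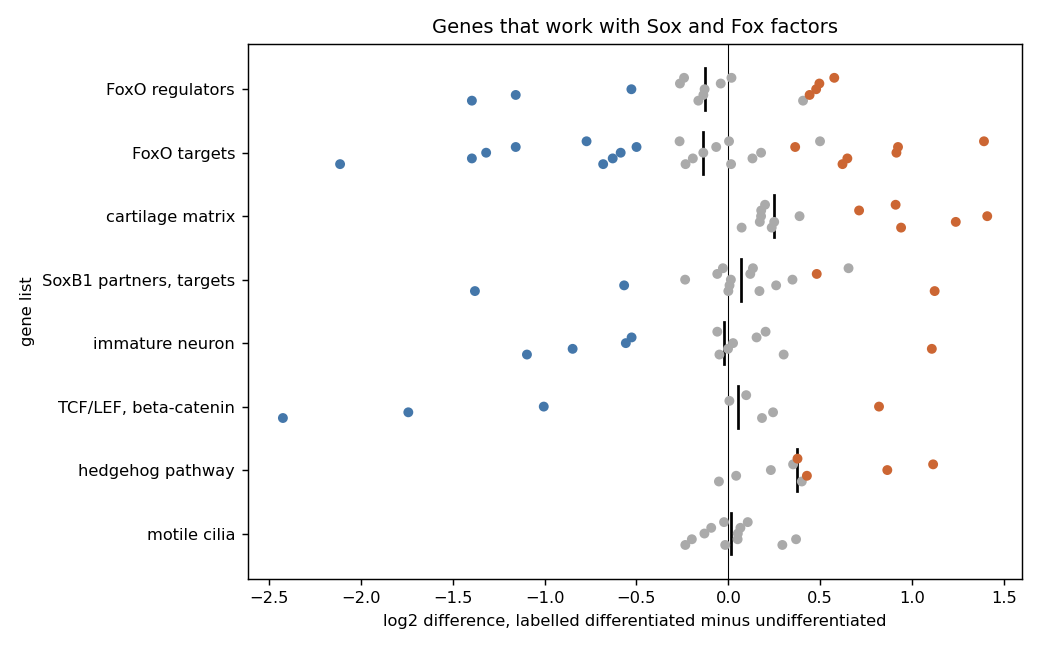
Log2 difference, labelled differentiated minus labelled undifferentiated, of each measured gene in 8 lists of partners, regulators and targets of Sox and Fox factors; orange points passed and were higher, blue passed and were lower, grey did not pass, and a black bar is the list's median. The cartilage matrix and hedgehog lists have medians of 0.25 and 0.38 and no blue point, and the FoxO lists have points of both colours.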

How the data were processed

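The table holds 29214 probe sets on 6 arrays as the authors deposited it, on a log2 scale inferred here from the value range. Per the labels' protocols, biotinylated cRNA was made from 100 ng of total RNA; how background was corrected and values normalized and summarized is not stated in the sources used here. The labels do not say that arrays came from separate cultures or animals, so p-values measure the spread between these arrays, whose number limits the precision. Names came from the platform's probe table (15310 with 1 symbol, 323 with several, 13581 unlisted). All 40 members matched RefSeq by gene ID and kept their symbols. Limma 3.58.1 in R 4.3.3 (lmFit, eBayes with trend, no block, two-sided, Benjamini-Hochberg over 14506 genes) gave every call of the main fit. The fit was also run on simulated arrays with independent noise and changes of known size. That run does not show that the calls in these data are right. Figures were made with matplotlib 3.10.9.

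Members and lists were chosen with earlier results of these data known. Members past the threshold, a few by role, and up to 2 list genes a direction were named by rule; further list genes and all markers except Th were named after their values were seen. Alternatives were a replicate block, quantile normalization, median centring, leaving out dim genes, probe set means, other variance models and leaving out each array.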

Additional observations from a re-analysis of the deposited data

How the results depend on the processing

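The 9 members that rose kept their calls with quantile normalization, median centring, dim genes left out, averaged probe sets and eBayes without the trend, and 0 members fell under any of the 13 alternatives. Leaving out each array gave 7 to 10 higher members, in fits that called 11.5% to 13.7% of all genes higher. Foxq1 and Sox6 were lost as given above, Sox14 passed without differentiated replicate 1 and Sox8 without differentiated replicate 2. The equal-variance test without moderation called 2740 genes in all and 25 genes of the context lists, and of the members it lost Foxn3 (adjusted p = 0.0573), Foxq1 (0.15) and Sox6 (0.109); the cause was not tested. Of the other genes named, it also did not call Irs1, Pik3r1, Sgk1, Txnip, Bcl6, Trib1, Matn4, Hapln1, Notch1, Msi1, Map2, Mapt, Stmn1, Cdon, Cspg4, Kcnj8 and S100b. Without the trend, Sgk1, Txnip, Bcl6, Trib1 and S100b were lost. With arrays left out singly, S100b lost its call for 4 arrays, Cspg4 for 3 and Kcnj8 for 1. The Sox2 difference ran from -0.0101 (without undifferentiated replicate 2) to 0.31 when each array was left out. The replicate block called 10 members higher, Sox8 being the addition. It called 4430 genes in all, with 15.4% of all genes higher, and of the named genes it lost Bcl6 (limma adjusted p = 0.0534). The labels do not say that replicate numbers pair arrays, so the main fit had no block. Same-numbered arrays deviated from their group means with correlations of 0.09, 0.07 and -0.01 over all probe sets. Such correlations cannot show whether those arrays shared a culture or a batch. How far dim probe sets stood above background is not known here.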
